A study of Mus musculus with 16 samples.

Results

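A set of 9 chemokine receptors of T cells (Ccr2, Ccr4, Ccr6, Ccr7, Ccr9, Cxcr3, Cxcr4, Cxcr5 and Cxcr6) were described across mouse CD8 T cells that differed in history and in stimulation. They were chosen by gene name among the non-control probes of the array, with Cxcr5 carried under its older name Blr1, and all 9 receptors were found, on 12 of 41174 probes. All 9 had a tested probe and stood among the 18402 genes tested. The study set stimulated against resting cells within each cell type, and memory phenotype against naive cells within each culture condition. CD8+Thy1.2+ cells from female C57BL/6N mice, 7 weeks old, were sorted by flow cytometry into memory phenotype (CD44hi, called memory cells here) and naive (CD44lo) cells. Each was cultured for 4 h in medium with PMA (10 ng/mL), a phorbol ester that activates protein kinase C, and ionomycin (500 ng/mL), a calcium ionophore, or in medium alone. The 4 groups were stimulated memory, resting memory, stimulated naive and resting naive cells, with 4 arrays each from 4 repeats of the sort and culture. The labels name no transgene, infection or immunization, the stimulus bypasses the antigen receptor, and whether a repeat pooled several mice is not stated.

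Chemokine receptors are G protein-coupled receptors that read gradients of small secreted or membrane-bound proteins, the chemokines, and turn them into directed movement and integrin activation. In T cells the set of receptors on the surface decides which tissue a cell can enter: naive cells recirculate through lymph nodes, and antigen-experienced cells gain receptors for inflamed tissue, skin, mucosa or B cell follicles. Receptor transcripts are also changed by activation itself, and the arrays measured transcripts, not receptors on the cell surface.

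Levels are given as log2 of the processed signal relative to the 75th percentile of all non-control probes of the same array, so that 0 is the level of a probe at that percentile. A level belongs to its own probe and was not set against that of another probe. Over the 16 arrays that percentile ranged from 485 to 670 intensity units, 59.3% to 66.5% of spots were well above background, and arrays of a group correlated at 0.978 to 0.995. The number of arrays limits the precision. Each group lay on a slide of its own, so slide and group cannot be told apart in any comparison, and p-values measure the spread between the 4 repeats. All 10 T cell markers, among them Cd3d, Cd8a and Cd8b1, were well above background in every group. Foxp3 of regulatory T cells and Pax5 and Fcrla of B cells were not above background on any array. Of the 7 B cell markers, 5 were well above background on 3 or more resting memory arrays, and 3 in each other group. Among these, Cd79b and Ms4a1 were well above background on every array. Cd4 was too, with a mean of -4.52 in stimulated memory, -4.16 in resting memory, -4.30 in stimulated naive and -4.45 in resting naive cells. The 5 markers of CD4 and regulatory T cells summed, as linear signal relative to the 75th percentile, to 0.275 to 0.361 in stimulated memory, 0.465 to 0.981 in resting memory, 0.428 to 1.03 in stimulated naive and 0.211 to 0.348 in resting naive cells. Of these, Ikzf4 was well above background on every array, and Zbtb7b was 3.44 higher (log2) in resting memory than in resting naive cells (adjusted p = 1.02e-07), where 1 of 4 arrays was above background. Fewer cells of a type and less RNA per cell cannot be told apart in these bulk samples.

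Stimulation changed 8 of 9 receptors in memory cells, with Ccr4, Cxcr3 and Cxcr6 higher and Ccr2, Ccr7, Ccr9, Cxcr4 and Cxcr5 lower (limma, adjusted p below 0.05). In naive cells it changed 7 of 9, with Ccr4, Cxcr3 and Cxcr6 higher and Ccr6, Ccr7, Ccr9 and Cxcr4 lower. Over all genes tested 70.4% passed in memory cells (31.3% higher and 39.1% lower) and 69.2% in naive cells (38.3% higher and 31.0% lower), so that a call was the usual outcome for a gene in either response. Between the cell types, 8 of 9 receptors passed at rest (7 higher and 1 lower in memory cells), against 21.5% of all genes (13.9% higher and 7.66% lower), and 7 of 9 after stimulation (5 higher and 2 lower), against 24.2% (10.1% higher and 14.1% lower). The response itself differed between the cell types for 4 receptors, all more negative or less positive in memory cells, against 20.0% of all genes (5.90% higher and 14.1% lower). Other processing brought in Ccr6 and Ccr9 as more positive in memory cells and Ccr2 as more negative. Leaving out 1 array brought in Ccr7 as more negative, as given under each. The median change of the 9 receptors was -0.81 in memory cells and -0.07 in naive cells, and the median over all genes was -0.16 and 0.15. The median difference between memory and naive cells was 0.55 after stimulation and 1.03 at rest, and over all genes it was -0.05 and -0.01.

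**Figure D1:**
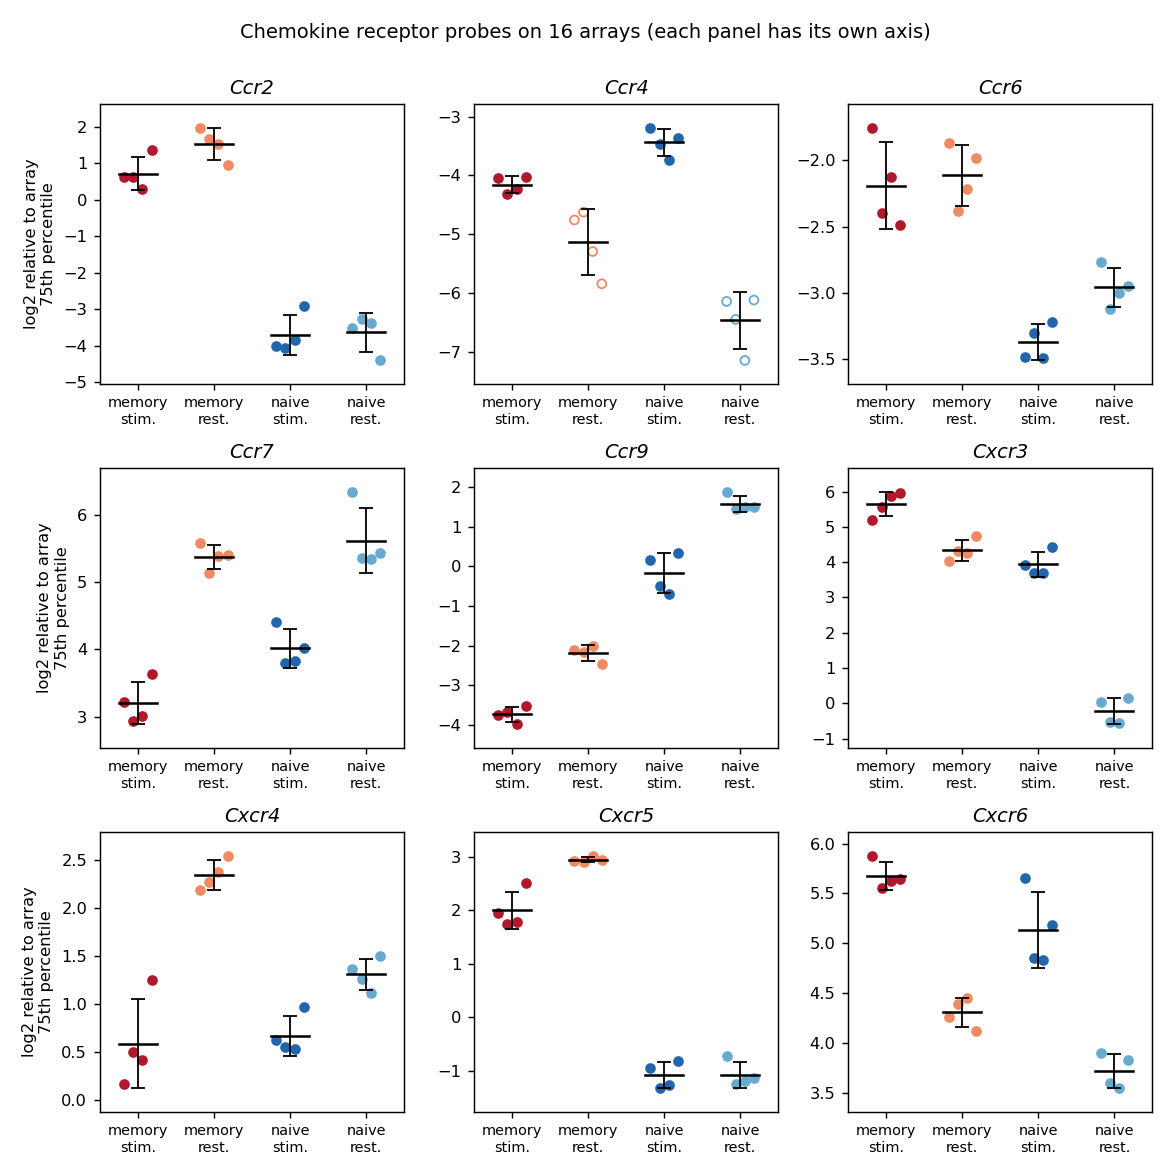
Level of each receptor (log2 relative to the array's 75th percentile, one panel and one axis per receptor) on the 4 arrays of each group, with the mean and SD as bars. Open points are groups in which fewer than 4 arrays were well above background, which occurred for Ccr4 at rest only. Cxcr3 averaged 3.94 in stimulated naive and -0.22 in resting naive cells, and Ccr9 was highest in resting naive cells at 1.58.

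The scaling of the arrays moved the balance of calls over all genes. Of the genes called, 44.5% were higher in the memory response, 64.4% in the resting difference, 41.7% in the stimulated difference and 29.4% in the difference of responses. With arrays scaled to their medians these shares were 58.1%, 30.2%, 61.5% and 72.0%, and the median over all genes moved to 0.15, -0.22, 0.08 and 0.34. In the difference of responses the share was 40.7% with quantile scaling and 47.2% in the authors' deposited table, and in the resting difference it was 51.9% in that table. No receptor change that passed the test turned its direction under these 3 scalings.

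The sequences upstream of the 3 receptors that rose with stimulation in both cell types are shown because these receptors moved together. Windows of 250 bases before the gene start were taken from RefSeq (GRCm38.p6), which gave entries for 7 of 9 receptors. Capitals mark matches on either strand to TGANTCA (AP-1, a target of protein kinase C signalling), GGAAA (the core that NFAT factors, activated by calcium, bind) and GGTGTGA (a T-box motif). Ccr4 (chr9:114496545-114496794, minus strand), Cxcr6 (chr9:123806227-123806476, plus strand) and Cxcr3 (chrX:101734148-101734397, minus strand) read, 5′ to 3′:

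Ccr4: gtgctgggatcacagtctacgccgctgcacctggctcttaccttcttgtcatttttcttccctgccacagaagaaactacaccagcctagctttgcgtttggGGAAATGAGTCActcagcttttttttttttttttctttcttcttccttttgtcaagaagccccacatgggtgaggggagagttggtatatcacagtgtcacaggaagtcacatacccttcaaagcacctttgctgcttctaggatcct

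Cxcr6: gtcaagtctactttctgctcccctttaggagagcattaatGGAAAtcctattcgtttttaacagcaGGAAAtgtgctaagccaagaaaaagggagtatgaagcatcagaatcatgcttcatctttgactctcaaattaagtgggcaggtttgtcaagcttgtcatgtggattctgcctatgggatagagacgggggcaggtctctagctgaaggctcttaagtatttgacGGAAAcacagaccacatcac

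Cxcr3: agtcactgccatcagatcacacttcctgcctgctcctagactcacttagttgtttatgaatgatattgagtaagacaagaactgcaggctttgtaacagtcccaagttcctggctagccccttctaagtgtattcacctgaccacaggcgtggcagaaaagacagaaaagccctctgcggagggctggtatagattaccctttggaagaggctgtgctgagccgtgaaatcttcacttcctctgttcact

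The Ccr4 window held 1 GGAAA directly followed by 1 TGANTCA, the Cxcr6 window held 3 GGAAA, and the Cxcr3 window held none of these letters. GGAAA also stood in the windows of Ccr2 (3 matches), Ccr6 and Cxcr4, which rose in neither cell type. In all, 6 of 8 receptor windows held it, with more than 1 window for Ccr6. Of 32851 windows of the same length over all genes, 55.6% held GGAAA, 6.75% TGANTCA and 3.33% GGTGTGA. The joined form GGAAATGANTCA, searched after the Ccr4 match was seen, stood in 13 windows (0.0396%). A match describes these letters and shows no binding site.

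Probe sequences are shown for the 4 receptors with the largest differences between resting memory and resting naive cells, as the first 30 of 60 bases. On the mm7 build named in the files these probes lie at chr9:123827135-123827194 (Ccr2, plus strand), chr9:123499521-123499580 (Ccr9, plus strand), chrX:97058936-97058995 (Cxcr3, minus strand) and chr9:44446333-44446392 (Cxcr5, minus strand). Their exon or UTR annotation was not used here. The fifth line is the stretch of 30 bases, in capitals, that the pair of Ccr4 probes share, so that these are not independent probes.

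Ccr2: gaagcagggacagaattcttgctttgaaaa

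Ccr9: caggcaagaggcacttgctgcaggttctcc

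Cxcr3: gccaggcgttgtcagcactgaatgtgccca

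Cxcr5: gggaaaccaatgctatagcttcagagactg

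Ccr4 shared: CTTGAGTGGATCTCTAGTTTGGTTGAACTA

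Among receptors for inflamed tissue, Cxcr3 binds the interferon-induced chemokines Cxcl9, Cxcl10 and Cxcl11 and guides effector T cells. In memory cells its level was 5.19, 5.56, 5.87 and 5.96 on the 4 stimulated arrays and 4.02, 4.33, 4.25 and 4.73 on the 4 resting arrays. In naive cells it was 3.93, 3.71, 3.69 and 4.43 on stimulated arrays and 0.03, -0.54, -0.55 and 0.16 on resting arrays. Stimulated and resting arrays did not overlap in either cell type, and the resting naive arrays stood far below all others. Cxcr3 rose 2.49-fold in stimulated memory cells (log2 1.32 ± 0.23 SE, adjusted p = 0.000103) and 17.9-fold in stimulated naive cells (4.16 ± 0.23, adjusted p = 3.37e-10). The memory change was 0.66 with quantile scaling (adjusted p = 0.00892) and 0.67 in the authors' deposited table (adjusted p = 0.00495). The response was smaller in memory cells, with a difference of -2.85 ± 0.32 on the log2 scale (adjusted p = 2.24e-05). Memory cells were 3.27-fold higher than naive cells after stimulation (adjusted p = 8.04e-05) and 23.5-fold higher at rest (adjusted p = 2.29e-09). The order of levels was stimulated memory, resting memory, stimulated naive and resting naive, and the step between stimulated naive and resting memory cells did not pass (log2 -0.39, adjusted p = 0.146). Summed NK and NKT cell markers, as linear signal relative to the 75th percentile, were 5.98 to 9.58 in stimulated memory, 7.07 to 8.10 in resting memory, 2.18 to 3.26 in stimulated naive and 1.38 to 2.23 in resting naive cells. All 5 measured markers of that list were well above background on 3 or more stimulated memory arrays, and Ncr1 was above on 1 resting memory array and on no naive array. Eomes, which is also expressed by CD8 T cells, carried most of the sum in every group. Its mean was 2.45 in stimulated memory, 2.19 in resting memory, 1.35 in stimulated naive and 0.22 in resting naive cells. The part of these markers in the Cxcr3 difference was not tested.

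Cxcr6 binds Cxcl16, a chemokine that also exists as a membrane protein, and is known from T cells of liver and other peripheral tissue. It was at 5.88, 5.55, 5.63 and 5.65 on stimulated memory arrays and 4.26, 4.39, 4.45 and 4.12 on resting memory arrays. On stimulated naive arrays it was at 5.65, 4.85, 4.84 and 5.18, and on resting naive arrays at 3.90, 3.60, 3.54 and 3.83. Every stimulated array lay above every resting array of either cell type. The rise was 2.58-fold in memory cells (log2 1.37 ± 0.17, adjusted p = 2.4e-06) and 2.66-fold in naive cells (1.41 ± 0.17, adjusted p = 1.71e-06). The memory change was 0.71 with quantile scaling (adjusted p = 0.00366) and 0.70 in the authors' deposited table (adjusted p = 0.00238). The responses differed by -0.04 (95% interval -0.54 to 0.46, adjusted p = 0.924). Memory cells were 1.46-fold higher after stimulation, where the arrays overlapped (adjusted p = 0.0258), and 1.50-fold higher at rest, where they did not (adjusted p = 0.0195). Both differences were lost on leaving out single arrays. After stimulation the adjusted p was 0.0789 without memory replicate 1, 0.0889 without naive replicate 2 and 0.0872 without naive replicate 3. At rest it was 0.0509 and 0.0555 without memory replicates 2 and 3, and 0.0584 and 0.0633 without naive replicates 2 and 3. The stimulated difference was also lost with quantile scaling (adjusted p = 0.0619), and the resting difference with array medians (0.38, adjusted p = 0.117).

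Ccr4 binds Ccl17 and Ccl22 and is known from skin-homing T cells. Its tested probe was at -4.05, -4.32, -4.24 and -4.02 on stimulated memory arrays and at -4.76, -4.63, -5.29 and -5.84 on resting memory arrays, where 2 of 4 arrays were well above background. It was at -3.19, -3.46, -3.74 and -3.37 on stimulated naive arrays and at -6.14, -6.45, -7.15 and -6.12 on resting naive arrays, where no array was well above background. No 2 groups overlapped, and the stimulated naive arrays were the highest. Ccr4 was at least 4.64-fold higher in stimulated than in resting naive cells (adjusted p = 5.01e-08). Such bounds set the mean of the brighter group against, per array of the dim group, the dimmest value that any probe well above background had there, or the probe's own value where that was higher. In memory cells the rise was 1.96-fold (log2 0.97 ± 0.26, adjusted p = 0.00353). The resting difference was at least 1.44-fold (adjusted p = 0.00177). The difference of responses passed (adjusted p = 0.0011), but its fitted value of -2.05 rests on resting naive arrays below background and is no measured size. The naive response, the resting difference and the difference of responses all depend on how dim signal was treated, the naive bound of 4.64-fold included. With normexp background correction whose failed estimates were repaired, they were 0.69 (adjusted p = 2.71e-06), 0.04 (adjusted p = 0.803) and -0.28 (adjusted p = 0.172) on the log2 scale. In the authors' deposited table, which sets a floor, they were 1.18 (adjusted p = 2.8e-08), 0.20 (adjusted p = 0.171) and -0.55 (adjusted p = 0.0137). With the unrepaired correction the naive response was 1.02 and did not pass (adjusted p = 0.118). The stimulated difference, -0.72, missed the threshold (adjusted p = 0.0565). It passed in the authors' deposited table (-0.35, adjusted p = 0.0224), and without memory resting replicate 2 (0.0491), memory resting replicate 4 (0.0267) or naive resting replicate 3 (0.032), arrays that enter it only through the shared estimate of spread. With the replicate number as a block it passed too (adjusted p = 0.0363). The second Ccr4 probe was well above background on 1 stimulated naive array and on no other, and was not tested.

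**Figure D2:**
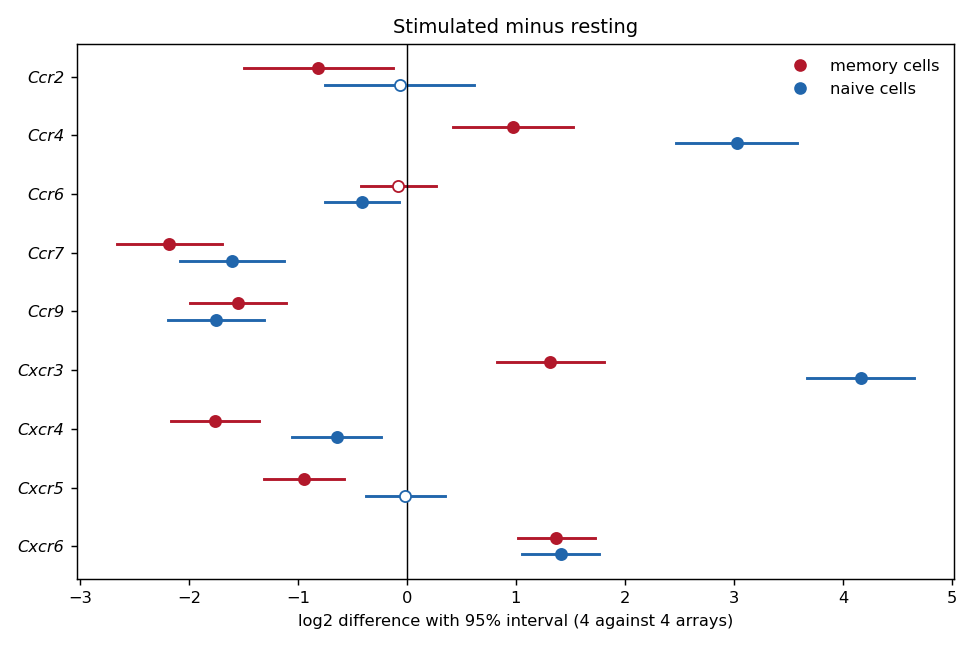
Stimulated minus resting log2 difference of each receptor (x axis) in memory cells (red) and naive cells (blue), with 95% intervals from 4 against 4 arrays; filled points had an adjusted p below 0.05. Cxcr3 shows the widest gap, 1.32 in memory and 4.16 in naive cells, and for Cxcr6 the pair lies together at 1.37 and 1.41; the naive point of Ccr4 is a fitted value against arrays below background.

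Among receptors of recirculation, Ccr7 binds Ccl19 and Ccl21 and brings T cells into lymph nodes. It was at 3.21, 2.93, 3.01 and 3.64 on stimulated memory arrays and at 5.58, 5.14, 5.38 and 5.40 on resting memory arrays. On stimulated naive arrays it was at 4.41, 3.79, 3.83 and 4.01, and on resting naive arrays at 6.35, 5.35, 5.34 and 5.43. All stimulated arrays lay below all resting arrays. Ccr7 fell 4.53-fold in memory cells (log2 -2.18 ± 0.23, adjusted p = 4.22e-07) and 3.04-fold in naive cells (-1.61 ± 0.23, adjusted p = 1.2e-05). The difference of responses, -0.57, did not pass (adjusted p = 0.229), and was -0.82 without naive resting replicate 1, the highest of its group (adjusted p = 0.0282). Memory and naive cells did not differ detectably at rest (-0.24, 95% interval -0.72 to 0.24, adjusted p = 0.488). After stimulation Ccr7 was 1.76-fold lower in memory cells (adjusted p = 0.016), or -0.73 on the log2 scale without memory stimulated replicate 2 (adjusted p = 0.0516).

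Cxcr4 binds Cxcl12 and takes part in bone marrow homing. Its tested probe was at 0.17, 0.50, 0.41 and 1.25 on stimulated memory arrays and at 2.19, 2.26, 2.37 and 2.54 on resting memory arrays. It was at 0.62, 0.54, 0.53 and 0.97 on stimulated naive arrays and at 1.36, 1.25, 1.12 and 1.50 on resting naive arrays. Stimulated arrays lay below resting arrays of the same cell type, and resting memory arrays above all others. Cxcr4 fell 3.39-fold in memory cells (log2 -1.76 ± 0.19, adjusted p = 7.27e-07) and 1.56-fold in naive cells (-0.64 ± 0.19, adjusted p = 0.00736). The fall was larger in memory cells, with a difference of responses of -1.12 ± 0.27 (adjusted p = 0.00873). Memory cells were 2.05-fold higher at rest (adjusted p = 0.00121), while after stimulation the groups overlapped (-0.08, 95% interval -0.49 to 0.32, adjusted p = 0.787). The second Cxcr4 probe also fell, by 1.61 in memory cells (adjusted p = 2.97e-06) and by 0.97 in naive cells (adjusted p = 0.000473), but its difference of responses, -0.64, did not pass (adjusted p = 0.14).

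Ccr9 binds Ccl25 and directs cells to the small intestine and developing cells within the thymus. It was at -3.74, -3.67, -3.98 and -3.52 on stimulated memory arrays and at -2.10, -2.15, -2.01 and -2.47 on resting memory arrays. It was at 0.15, -0.50, -0.69 and 0.34 on stimulated naive arrays and at 1.88, 1.44, 1.50 and 1.48 on resting naive arrays. Every naive array lay above every memory array, and no 2 groups overlapped. Ccr9 was 11.8-fold lower in memory than in naive cells after stimulation (log2 -3.56 ± 0.21, adjusted p = 1.57e-08) and 13.5-fold lower at rest (-3.76 ± 0.21, adjusted p = 5.64e-09). Stimulation lowered it 2.92-fold in memory cells (adjusted p = 6.8e-06) and 3.36-fold in naive cells (adjusted p = 1.79e-06). After the repaired normexp correction the memory response was -0.77 and the stimulated difference -2.43, and in the authors' deposited table they were -0.94 and -2.87, all with the call kept. All 3 steps in the order of its levels passed. The difference of responses was 0.20 (adjusted p = 0.674), but 0.85 after the repaired normexp correction (adjusted p = 0.0195) and 0.82 in the authors' deposited table (adjusted p = 0.0336). Summed B cell markers also fell with stimulation, to 0.161 to 0.230 in stimulated memory against 1.33 to 1.57 in resting memory cells, and to 0.149 to 0.266 in stimulated naive against 1.42 to 2.14 in resting naive cells, mainly through Cd79b. Summed myeloid markers were 2.97 to 4.57 against 13.7 to 22.0 in memory cells and 1.72 to 3.24 against 8.34 to 14.3 in naive cells. The part of either in the lower Ccr7, Cxcr4 and Ccr9 signals was not tested.

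Among receptors higher in memory cells, Ccr2 binds Ccl2 and related chemokines and is best known from inflammatory monocytes and from effector and memory T cells. Its brighter probe was at 0.61, 0.62, 0.29 and 1.37 on stimulated memory arrays and at 1.98, 1.68, 1.53 and 0.96 on resting memory arrays. On stimulated naive arrays it was at -4.02, -4.06, -3.84 and -2.90, and on resting naive arrays at -3.51, -3.26, -3.37 and -4.41. Memory and naive arrays were far apart, and stimulated and resting arrays overlapped in both cell types. Ccr2 was 21.5-fold higher in memory cells after stimulation (log2 4.43 ± 0.32, adjusted p = 1.8e-07) and 36.1-fold higher at rest (5.17 ± 0.32, adjusted p = 2.46e-08). These log2 differences were 3.08 and 3.85 after the repaired normexp correction and 3.76 and 4.58 in the authors' deposited table, and both passed there. Stimulation lowered it 1.76-fold in memory cells (-0.81 ± 0.32, adjusted p = 0.0335), the naive change was -0.07 (adjusted p = 0.862), and the difference of responses was -0.75 (adjusted p = 0.274). The latter passed with the median over the probes of a gene (-0.99, adjusted p = 0.0252), which takes in a second probe below background in naive cells. The memory call was lost with array medians (-0.50, adjusted p = 0.177), with no filter on dim probes (adjusted p = 0.0528) and without any 1 of memory resting replicates 1, 2 and 3 (0.0998, 0.0709 and 0.0566) or memory stimulated replicates 1, 2 and 3 (0.0669, 0.0676 and 0.0973). It was also lost with the replicate number as a block (adjusted p = 0.0585). On the second Ccr2 probe the memory arrays did not overlap and the response was -1.31 ± 0.20 (adjusted p = 3.63e-05). On that probe no naive array was well above background, so that it gives no naive response, and the memory level was at least 2.68-fold higher after stimulation and at least 7.23-fold higher at rest. Of the myeloid markers summed above, S100a9 was at 3.02 in resting memory and 2.77 in resting naive cells and Lyz2 at 2.69 and 1.17, and their part in the Ccr2 difference was not tested.

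Cxcr5 binds Cxcl13 and brings B cells and follicular T cells into B cell follicles. It was at 1.96, 1.75, 1.79 and 2.50 on stimulated memory arrays and at 2.93, 2.89, 3.02 and 2.95 on resting memory arrays. It was at -0.94, -1.33, -1.26 and -0.82 on stimulated naive arrays and at -0.72, -1.25, -1.19 and -1.13 on resting naive arrays. Memory arrays lay above all naive arrays, and the naive groups overlapped. Cxcr5 was 8.49-fold higher in memory cells after stimulation (log2 3.09 ± 0.17, adjusted p = 1.14e-08) and 16.2-fold higher at rest (4.02 ± 0.17, adjusted p = 6.28e-10). It fell 1.93-fold with stimulation in memory cells (-0.95 ± 0.17, adjusted p = 0.000154) and was at -0.01 in naive cells (95% interval -0.38 to 0.35, adjusted p = 0.951). The difference of responses was -0.93 ± 0.24 (adjusted p = 0.0134), -1.53 in the authors' deposited table (adjusted p = 0.000184), and -0.59 with array medians, where it missed the threshold (adjusted p = 0.0713). The summed B cell markers were at 1.33 to 1.57 in resting memory and 1.42 to 2.14 in resting naive cells, and these ranges overlapped. Of the 5 tested genes of that list, Cd22 passed as higher in resting memory cells (1.64, adjusted p = 0.00156) and none as lower. Ms4a1, Blnk and Cd79a were at 0.63, 0.78 and 0.78 in that comparison, and Cd79b, which carried most of the sum, at -0.36. Their part in the Cxcr5 difference was not tested.

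Ccr6 binds Ccl20 and is known from mucosal and type 17 T cells. It was at -1.75, -2.39, -2.13 and -2.49 on stimulated memory arrays and at -1.87, -2.38, -2.22 and -1.98 on resting memory arrays. It was at -3.48, -3.30, -3.49 and -3.22 on stimulated naive arrays and at -2.77, -3.12, -3.00 and -2.94 on resting naive arrays. Memory arrays lay above naive arrays, and only the memory groups overlapped each other. Ccr6 was 2.27-fold higher in memory cells after stimulation (log2 1.18 ± 0.16, adjusted p = 8.86e-05) and 1.80-fold higher at rest (0.85 ± 0.16, adjusted p = 0.00145). In memory cells the response was -0.08 (95% interval -0.42 to 0.26, adjusted p = 0.676). In naive cells Ccr6 fell 1.33-fold (-0.41 ± 0.16, adjusted p = 0.0314), a call lost without naive resting replicate 1 (0.0819) or 4 (0.054), without naive stimulated replicate 1 (0.0712) or 3 (0.0776), in the authors' deposited table (-0.22, adjusted p = 0.105) and after the repaired normexp correction (-0.15, adjusted p = 0.297). The difference of responses was 0.34 (95% interval -0.15 to 0.82, adjusted p = 0.328), and passed with array medians (0.68, adjusted p = 0.0252). Markers of gamma-delta and type 17 cells summed to 2.70 to 5.80 in stimulated memory, 15.0 to 20.3 in resting memory, 0.172 to 0.341 in stimulated naive and 0.314 to 0.689 in resting naive cells. At rest Cd163l1 carried that sum, and Il23r, Il17a, Sox13 and Blk were not above background on any resting array. Their part in the Ccr6 difference was not tested.

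**Figure D3:**
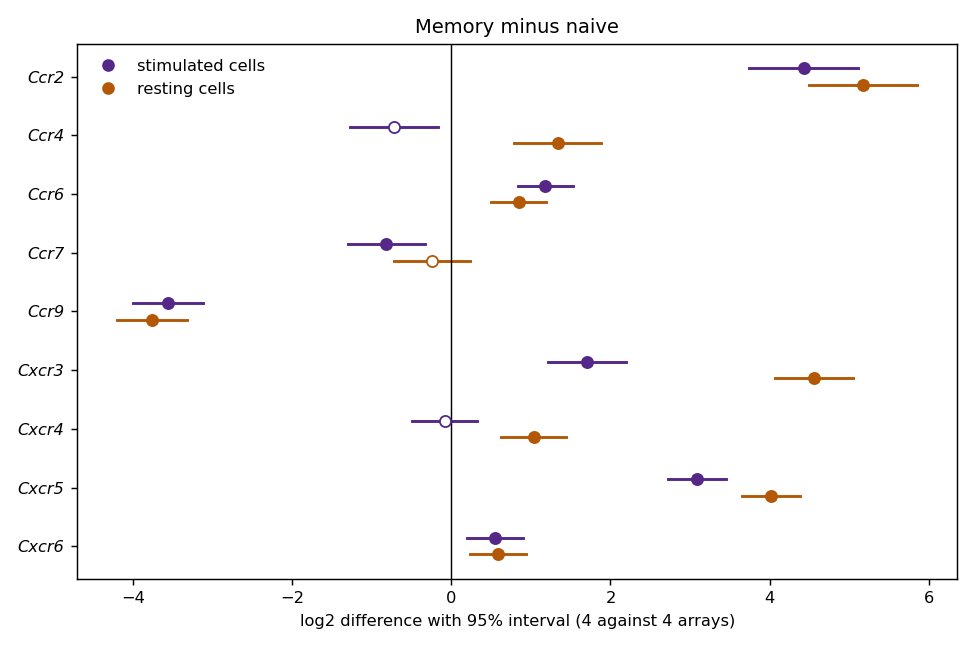
Memory minus naive log2 difference of each receptor (x axis) in stimulated cells (purple) and resting cells (brown), with 95% intervals from 4 against 4 arrays; filled points had an adjusted p below 0.05. Ccr2, Cxcr3 and Cxcr5 lie furthest to the right at rest (5.17, 4.56 and 4.02), and Ccr9 alone lies below -3 in both conditions (-3.56 and -3.76).

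Across all 9 receptors, 20 of 27 steps between neighbours in the order of group means passed, and of all genes 64.5% passed between stimulated naive and resting memory cells and 67.8% between stimulated memory and resting naive cells. The 7 that did not were the naive response of Ccr2 and of Cxcr5, the memory response of Ccr6, the stimulated difference of Ccr4 and of Cxcr4, the resting difference of Ccr7, and stimulated naive against resting memory cells for Cxcr3. Ccr2, Cxcr5 and Ccr6 were higher in memory cells at rest and after stimulation and did not rise with stimulation, and Ccr2 and Cxcr5 correlated at 0.986 over the 16 arrays, which share 4 groups.

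Likeness of pattern was measured by Pearson's r over the same 16 arrays and is a description. Cxcr3 was most like Nrn1 (0.977), Cd44 (0.972), the antigen by which the cells had been sorted, and Plek (0.969). Cxcr6 was most like Srgap3 (0.983) and Ptger2 (0.976). For Ccr7 the nearest were Lck (0.985), Slc37a1 (0.984) and Galnt6 (0.980), and among the nearest to Ccr9 were Trib2 (0.965) and Ldhb (0.958). Lck is a kinase of T cell receptor signalling. For Ccr2 the nearest were Dmrta1 (0.986), Cxcr5 (0.986) and Klra16 (0.982), and for Cxcr5 they were Dmrta1 (0.995), Klra16 (0.986) and Ccr2 (0.986). For Ccr6 they were Lgals1 (0.961), Nuf2 (0.953) and Lgals3 (0.951), of which Lgals1 and Lgals3 encode galectins. For Cxcr4 they were Usp48 (0.964), Akr1b8 (0.963) and A730063M14Rik (0.956). For Ccr4 the 3 nearest were array sequences with no gene symbol in the files (0.946 to 0.947).

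Ccr9, Cxcr6 and Ccr2 belong to a receptor cluster on chromosome 9, where on mm7 the Cxcr6 probe lies 30.8 kb and the Ccr2 probe 328 kb from that of Ccr9, with Xcr1, Ccr1 and Ccr3 between them. The neighbours Ccr9 and Cxcr6 changed in opposite directions with stimulation, at -1.55 and 1.37 in memory cells and -1.75 and 1.41 in naive cells. They also differed between resting memory and resting naive cells in opposite directions, at -3.76 and 0.59.

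Of 14 other receptors for chemokines or related ligands, 9 were tested. Stimulation raised 1 and lowered 5 in memory cells, and raised 3 and lowered 2 in naive cells. At rest 4 were higher and none lower in memory cells, and after stimulation 2 were higher and 1 lower, of which 1 in all passed without memory stimulated replicate 1. Over all genes, stimulation raised 31.3% and lowered 39.1% in memory cells, and raised 38.3% and lowered 31.0% in naive cells. Between the cell types, 13.9% were higher and 7.66% lower in memory cells at rest, and 10.1% and 14.1% after stimulation. Ccr8, a receptor of Ccl1, rose by 2.73 in memory cells (adjusted p = 6.07e-05) and was at least 1.94-fold higher in stimulated than in resting naive cells (adjusted p = 0.000198). The 2.73 is a fitted value and no measured size, since only 1 of 4 resting memory arrays was well above background. Ackr1, an atypical receptor that binds chemokines without G protein signalling, was at -0.58 in memory cells (adjusted p = 0.0697) and rose by 1.53 in naive cells (adjusted p = 0.000128), with responses that differed by -2.10 (adjusted p = 0.0013). Both 1.53 and -2.10 rest on resting naive arrays, of which 2 of 4 were well above background for Ackr1. Cx3cr1, a marker of effector memory cells, was at least 1.26-fold higher in memory than in naive cells after stimulation and at least 2.46-fold higher at rest, with both naive groups below background, so that its call in the naive response carries no fold. Ccrl2, an atypical receptor, fell by 1.37 in memory cells (adjusted p = 0.00128) and was at 0.00 in naive cells. Xcr1 fell by 0.78 in memory cells (adjusted p = 0.0398), Cmklr1 fell by 1.05 (adjusted p = 0.000127), and Ackr2 was at least 1.01-fold lower (adjusted p = 0.0123), and none of these passed in naive cells. Cxcr2 fell by 0.92 in memory cells and by 0.86 in naive cells, and Ccr3 fell by 1.08 in naive cells (adjusted p = 0.000182). The Cxcr2 falls are fitted values, with 1 of 4 stimulated memory and 2 of 4 stimulated naive arrays well above background. Ccr1, Ccr10, Cxcr1, Ackr3 and Ackr4 were above background on too few arrays to be tested.

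Of 16 ligands of the 9 receptors, 15 were on the array under the names searched and 8 were tested. Stimulation raised 4 and lowered 2 in memory cells, and raised 4 and lowered 1 in naive cells. Over all genes it raised 31.3% and lowered 39.1% in memory cells, and raised 38.3% and lowered 31.0% in naive cells. Cxcl9, a ligand of Cxcr3, rose by 3.37 ± 0.31 on the log2 scale in memory cells (adjusted p = 9.23e-08) and was at least 3.90-fold higher in stimulated than in resting naive cells (adjusted p = 1.44e-08). Cxcl10, which shares that receptor, was at -0.68 in memory cells (adjusted p = 0.142) and rose by 1.58 in naive cells (adjusted p = 0.00263), and these responses differed by -2.26 (adjusted p = 0.0111). Cxcl16, the ligand of Cxcr6, rose by 1.01 in memory cells (adjusted p = 0.000118) and by 1.35 in naive cells (adjusted p = 6.13e-06). Ccl2, a ligand of Ccr2, was at least 2.11-fold higher in stimulated than in resting memory cells and at least 1.04-fold higher in stimulated than in resting naive cells. Ccl20, the ligand of Ccr6, was at least 2.00-fold higher in stimulated memory cells (adjusted p = 0.00122) and was at 0.08 in naive cells (adjusted p = 0.773). For Ccl20 only 1 of 4 stimulated naive and 2 of 4 resting naive arrays were well above background, so 0.08 is no measured naive response. Ccl25, the ligand of Ccr9, fell by 1.11 in memory cells and by 1.62 in naive cells, and Ccl19, a ligand of Ccr7, fell by 1.12 in memory cells (adjusted p = 0.0462) and was at 0.71 in naive cells (adjusted p = 0.193). Ccl17, a ligand of Ccr4, passed in neither response (0.14 in memory cells and 0.28 in naive cells). Ccl7, Ccl8, Ccl12, Ccl22, Cxcl11, Cxcl12 and Cxcl13 were not tested, since too few arrays were above background.

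**Figure D4:**
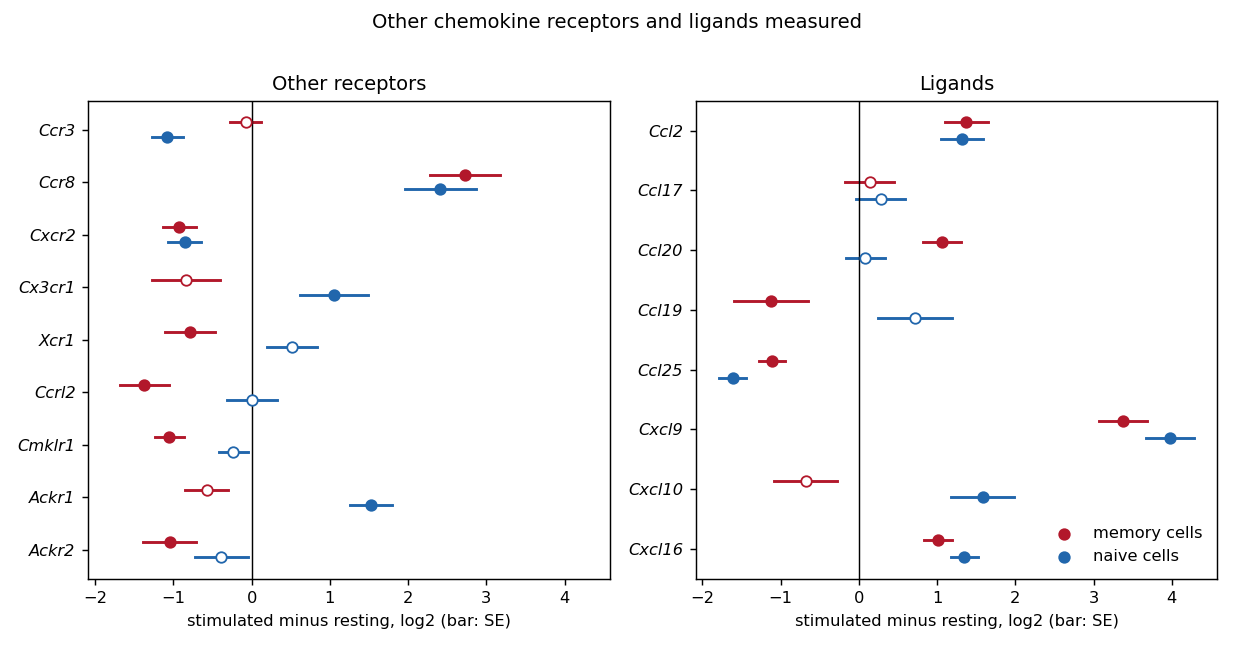
Stimulated minus resting log2 difference (x axis, bars are SE) of the 9 other receptors and 8 ligands tested, in memory cells (red) and naive cells (blue); filled points had an adjusted p below 0.05. In memory cells Cxcl9 lies at 3.37 and Ccr8 at 2.73, the latter a fitted value with 1 of 4 resting memory arrays well above background. Their naive points are fitted values against resting arrays below background, for which the text gives bounds.

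Genes that carry chemokine receptor signals to the cytoskeleton and integrins mostly fell. Of 32 tested, 21 fell and 5 rose in memory cells, with a median of -0.98, while naive cells had 22 lower and 7 higher (median -1.20). Over all genes 39.1% fell and 31.3% rose in memory cells (median -0.16), and 31.0% fell and 38.3% rose in naive cells (median 0.15). Rac2, a small GTPase of migrating blood cells, fell by 2.97 ± 0.15 in memory cells (adjusted p = 1.41e-10) and by 3.25 ± 0.15 in naive cells (adjusted p = 5.4e-11). Arrb1, a beta-arrestin that uncouples receptors, fell by 3.55 in memory cells and fell by 2.96 in naive cells. Coro1a, an actin regulator, fell by 2.25 in memory cells and by 2.93 in naive cells. Pik3cg, the lipid kinase subunit activated by G proteins, fell by 2.10 in memory cells and fell by 3.31 in naive cells, and these differed by 1.21 (adjusted p = 0.000829). Grk2, a kinase that desensitizes receptors, fell by 2.41 in memory cells and fell by 1.83 in naive cells, and these differed by -0.58 (adjusted p = 0.0175).

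Of 15 transcription regulators linked to these receptors, 5 rose and 6 fell in memory cells, and 9 rose and none fell in naive cells. Over all genes 31.3% rose and 39.1% fell in memory cells, and 38.3% rose and 31.0% fell in naive cells. With quantile scaling 5 regulators rose and 1 fell in naive cells. The response passed as lower in memory cells for 6 and as higher for 1, against 14.1% and 5.90% of all genes. Tbx21, the T-box factor that binds the Cxcr3 gene in mouse T cells, had a mean of 3.92 ± 0.14 in stimulated memory, 3.70 ± 0.11 in resting memory, 5.82 ± 0.33 in stimulated naive and -0.35 ± 0.44 in resting naive cells (SD, n = 4 each). Its response was 0.21 in memory cells (adjusted p = 0.339) and 6.17 in naive cells (adjusted p = 1.21e-12), a difference of -5.95 ± 0.28 (adjusted p = 2.03e-09). Irf4, an activation-induced factor, rose by 6.23 in memory cells and by 5.77 in naive cells. Eomes, a T-box factor of memory and effector CD8 T cells, was at 0.26 in memory cells (adjusted p = 0.289) and rose by 1.13 in naive cells (adjusted p = 0.000251). Id2, an inhibitor of E proteins, rose by 1.19 in memory cells (adjusted p = 2.05e-05) and by 0.44 in naive cells (adjusted p = 0.0349). Prdm1, a factor of effector differentiation, rose by 1.26 in memory cells and by 1.30 in naive cells, and Id3, a relative of Id2, fell by 1.37 in memory cells (adjusted p = 0.000423) and was at -0.12 in naive cells.

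**Figure D5:**
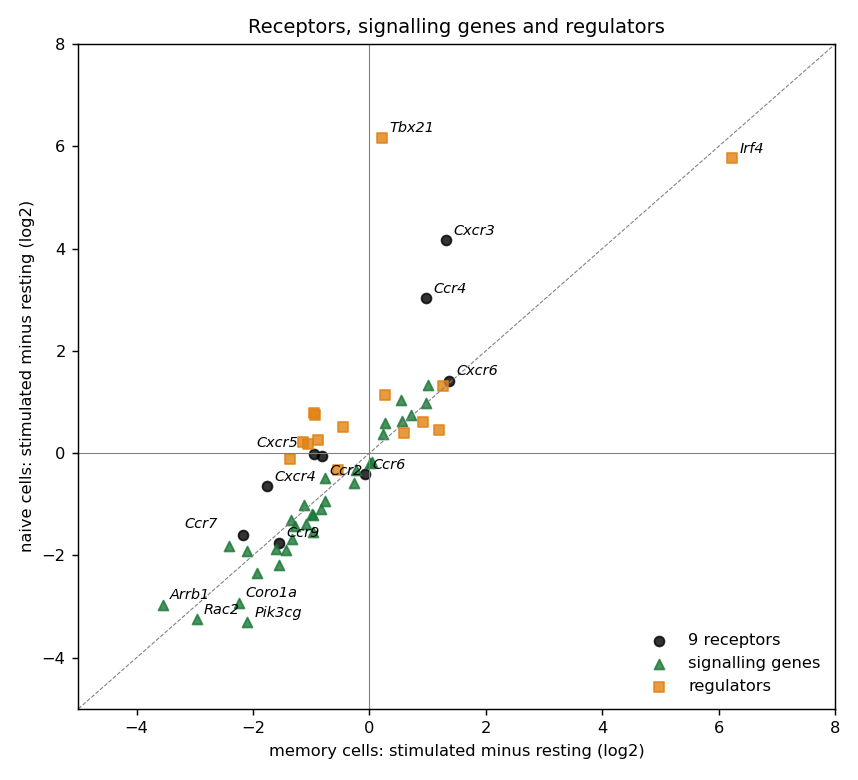
Response to stimulation (stimulated minus resting, log2) in memory cells (x axis) and naive cells (y axis) for the 9 receptors (black circles), 32 signalling genes (green triangles) and 15 regulators (orange squares); the dashed line marks equal responses. Tbx21 (0.21 and 6.17), Cxcr3 (1.32 and 4.16) and Ccr4 (0.97 and a fitted 3.02) lie above the line, and Rac2 lies near it at -2.97 and -3.25; no resting naive array was well above background for Ccr4.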

How the data were processed

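Spots were quantified with Agilent Feature Extraction 9.5.3.1 on 1-colour arrays, and the deposited processed signal is a background-subtracted intensity, per the file headers; probe positions are on mm7, per the file headers. Control spots and spots with outlier flags were removed, spots of a probe were averaged, and log2 intensity was expressed relative to the 75th percentile of each array (Python 3.11.15, pandas 2.3.3). Probes well above background on at least 3 of 4 arrays of a group were kept, and the probe with the highest mean stood for a gene. Symbols of 32737 probes came from RefSeq tables and 8437 kept the name in the files. All 4 groups were fitted together in limma 3.58.1 (R 4.3.3, lmFit and eBayes), with Benjamini-Hochberg adjustment over 18402 genes. On simulated data for the naive response, 100 of 18402 genes were given a log2 change of 1 and 100 a change of 2. Of these 68% and 92% were recovered, with 11 false calls among the unchanged genes. In the data 69.2% of genes passed in that response, so these rates do not carry over to it. The authors' deposited table of linear signal values (33797 array spots, median 149 on every array, lowest value 30, its making not given in the sources used here) was logged, averaged per probe and used as an alternative. The receptors and gene lists were chosen with earlier results of these data known. Named were all 9 receptors, all other receptors and ligands on the lists, up to 4 genes per response with the largest called change in the signalling list and in the regulator list, and those among the 3 genes most alike in pattern; a few genes of the lists and of these are not reported here, and the list counts and sums leave them out. Other scalings, background corrections, filters, probe choices, a replicate block and leaving out each array were tried.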

Additional observations from a re-analysis of the deposited data

Results flagged for a closer look

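In 2 of 36 sets of 4 arrays, 1 value lay far from the other 3 by Dixon's criterion, which chance exceeds in about 1 in 20 sets. Ccr7 was at 6.35 on naive resting replicate 1, with the nearest other array at 5.43. Ccr9 was at 1.88 on the same array, with the nearest at 1.50.

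For 4 receptors the response to stimulation differed between memory and naive cells, tested as an interaction in the limma fit. The memory response minus the naive response was -2.85 for Cxcr3, -2.05 for Ccr4, -1.12 for Cxcr4 and -0.93 for Cxcr5. The Cxcr3 value came from rises in both cell types and the Cxcr4 value from falls in both. The Ccr4 value is a fitted one that rests on resting naive arrays below background and depended on the treatment of dim signal, the Cxcr4 value did not pass on a second probe, and the Cxcr5 value did not pass with array medians, as given above.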

How the results depend on the processing

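Of 1215 receptor changes recomputed under 27 alternatives, 41 lost the threshold, 10 gained it in the same direction and 3 that had passed turned direction. The other 1161 were counted as unchanged. These include changes that had not passed and turned direction, such as the memory response of Ccr6, from -0.08 to 0.24 with array medians. The counts of receptors called moved by over 1.5 times under 1 alternative, normexp background correction: 5 passed in the resting difference, 2 in the stimulated difference and 1 in the difference of responses, and 13 steps in the order of groups passed. The 3 reversals were also there, at 0.18 for the naive response of Ccr6, 0.23 for the memory response of Ccr9 and 0.56 for the difference of responses of Ccr4. That correction estimated a background mean of -305 to -958 intensity units on 3 arrays and of -6.34 to -11.7 on the other 13. With the 3 estimates replaced by the median of the others, an alternative chosen after seeing the data, the counts were 7, 7 and 4, and 18 steps passed. Called receptor changes moved by over 1.5 times in 12 cases with that correction, in 7 with it repaired, in 10 in the authors' deposited table and in 2 with quantile scaling, and in none under the other alternatives. Leaving out single arrays gave 6 to 7 receptors in the naive response, 7 to 8 in the memory response, 7 to 8 in the resting difference, 6 to 8 in the stimulated difference and 4 to 5 in the difference of responses, and 18 to 21 steps. Samples share replicate numbers across groups, and whether a number marks 1 repeat is not stated. Of 24 same-numbered pairs 16 deviated together at a correlation over 0.1 (range -0.21 to 0.59). In 16 of 24 comparisons the best of 4 partners had the sample's own number, where unrelated numbers would give about 1 in 4. The fit reported above took the arrays as unpaired, so it ignores any such sharing. Only between resting memory and resting naive cells did all 4 pairs exceed 0.1 (0.30 to 0.59). There a replicate block left the same 8 receptors called, and raised the calls over all genes from 3960 to 5393. With the replicate number as a block 7 receptors passed in the naive response, 7 in the memory response (Ccr2 lost, adjusted p = 0.0585), 8 in each difference between cell types (Ccr4 gained after stimulation, adjusted p = 0.0363) and 4 in the difference of responses. Of the 9 other receptors, 2 passed in the naive response (5 in the fit reported above) and 1 in the stimulated difference (3 above) with the repaired correction, and 3 in the memory response (6 above) in the authors' deposited table. With the unrepaired correction 0 of them passed in limma in the naive response, the resting difference (4 above) or the stimulated difference, where 0, 1 and 1 had an unadjusted p below 0.05, and of the 15 regulators 5 passed in the naive response (9 above) and 2 in the difference of responses (7 above). A slide block could not be fitted, because each slide held 1 group. Signals near background limit Ccr4 and the second Ccr2 probe.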

Other observations

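Memory stimulated replicate 4 gave the highest of the 4 values of its group for 7 of 9 receptors (Ccr2, Ccr4, Ccr7, Ccr9, Cxcr3, Cxcr4 and Cxcr5). Without it the memory response was -1.98 for Cxcr4, -1.11 for Cxcr5, -2.32 for Ccr7 and 1.21 for Cxcr3, and no receptor's call in that response changed. Other arrays also ranked alike over many receptors. Naive stimulated replicate 4 was the highest of its group for 6 of 9 receptors, and replicate 3 the lowest for 6. Naive resting replicate 1 was the highest for 5 of 9, and replicate 3 the lowest for 5.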
